A study of Mus musculus with 6 samples.

Results

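Chemokines are small secreted proteins that guide moving cells, and their receptors are G protein-coupled receptors on the cells that respond. The family was taken from the deposited tables by gene symbol: every locus named Cxcl, Ccl, Cxcr, Ccr or Ackr with a number, together with Cx3cl1, Cx3cr1 and Ccrl2. That gave 59 of 52006 named loci, namely 13 CXC ligands, 23 CC ligands, 1 CX3C ligand and 22 receptors. The rule reads symbols only. RNA was sequenced from mouse embryonic fibroblasts, connective-tissue cells grown out of embryos, in 3 wild-type (WT) libraries and 3 libraries labelled Fbxw7 knockout (KO). All 6 cultures were kept in DMEM with serum (FBS, 15%) and NEAA (1%), and the labels gave no strain, embryonic age, passage, treatment, allele or Cre driver. Fbxw7 encodes the substrate-binding part of an SCF ubiquitin ligase, and the series asked which transcripts depend on it.

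CXC and CC ligands are named after the spacing of their first cysteines, and each class has its own receptors with some sharing. Cxcl1, Cxcl2, Cxcl3 and Cxcl5 attract neutrophils through CXCR2, Cxcl9, Cxcl10 and Cxcl11 attract activated T cells through CXCR3, and Cxcl12 holds stem and immune cells through CXCR4. Ccl2 and Ccl7 attract monocytes through CCR2 and Ccl11 attracts eosinophils through CCR3, while atypical receptors (ACKR) bind chemokines and remove them without the usual G protein signal. Fibroblasts are a known source of many ligands, and in them NF-kB and interferon signals are known to switch several of these genes on.

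The promoter letters of 5 CXC genes are shown first, because 4 of them (Cxcl1, Cxcl2, Cxcl3 and Cxcl10) were among the CXC genes that rose in the KO libraries and Cxcl14 was the CXC gene that fell. Each run is the 250 bases before the gene's RefSeq start on GRCm38.p6, written 5′ to 3′ on the gene's own strand, and capitals mark every base inside a match to the NF-kB consensus on either strand.
Cxcl1 promoter: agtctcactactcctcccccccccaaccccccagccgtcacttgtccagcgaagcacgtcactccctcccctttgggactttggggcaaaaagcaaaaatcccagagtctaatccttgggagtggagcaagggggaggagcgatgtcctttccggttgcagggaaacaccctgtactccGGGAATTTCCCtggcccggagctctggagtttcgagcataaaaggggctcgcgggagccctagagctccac
Cxcl2 promoter: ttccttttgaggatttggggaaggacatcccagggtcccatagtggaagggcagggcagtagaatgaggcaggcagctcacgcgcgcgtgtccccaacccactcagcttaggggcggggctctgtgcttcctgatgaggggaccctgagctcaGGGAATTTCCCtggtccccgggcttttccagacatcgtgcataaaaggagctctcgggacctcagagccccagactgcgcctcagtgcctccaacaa
Cxcl3 promoter: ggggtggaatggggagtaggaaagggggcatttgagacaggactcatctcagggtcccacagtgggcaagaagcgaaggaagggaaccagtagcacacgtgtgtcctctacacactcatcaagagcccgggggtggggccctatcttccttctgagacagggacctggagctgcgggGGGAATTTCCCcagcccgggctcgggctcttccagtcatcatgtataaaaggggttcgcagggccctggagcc
Cxcl10 promoter: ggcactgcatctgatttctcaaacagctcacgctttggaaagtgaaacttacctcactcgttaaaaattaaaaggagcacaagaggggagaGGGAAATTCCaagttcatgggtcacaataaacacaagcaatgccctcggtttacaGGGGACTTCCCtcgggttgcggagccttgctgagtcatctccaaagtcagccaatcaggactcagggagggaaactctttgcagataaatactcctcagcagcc
Cxcl14 promoter: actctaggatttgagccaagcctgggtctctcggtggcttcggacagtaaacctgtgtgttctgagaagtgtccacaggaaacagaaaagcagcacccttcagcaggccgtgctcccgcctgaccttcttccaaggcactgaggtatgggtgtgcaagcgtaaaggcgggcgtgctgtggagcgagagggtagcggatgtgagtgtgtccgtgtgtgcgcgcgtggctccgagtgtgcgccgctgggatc
The windows lie at chr5:90890995-90891244 (Cxcl1, plus strand), chr5:90903649-90903898 (Cxcl2, plus), chr5:90785851-90786100 (Cxcl3, plus), chr5:92348890-92349139 (Cxcl10, minus) and chr13:56296552-56296801 (Cxcl14, minus).

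Cxcl1, Cxcl2 and Cxcl3 carried the same 11-base run, GGGAATTTCCC, which matched the NF-kB consensus on both strands and began 71, 97 and 73 bases before the start. Cxcl10 held matches beginning 159, 104 and 103 bases before its start, the last pair of which overlap. The Cxcl10 window also held the interferon-response letters GAAANNGAAA 213 bases and the AP-1 letters TGANTCA 74 bases before the start. No NF-kB consensus match lay in the Cxcl14 window, which held GAAANNGAAA 172 bases before the start. The RefSeq table held windows for 44 of the 59 members, and Cxcl5, Ccl11 and Ccl5 were among those without one. Searched on both strands, the NF-kB consensus was in 4 of 8 windows of members that rose (Ccl27a has 3 windows, none with a match). It was in 1 of 5 windows of members that fell (Ccl20) and in 2 of 12 of tested members that did not pass. The rest of the 53 member windows belong to untested members, of which Ccl1, Ccr1, Ccr3, Ccr6 and Ackr2 also held a match. Of all 32536 windows of the same length, 7.28% held it, 6.73% held TGANTCA and 2.98% held GAAANNGAAA. A match describes letters and not a bound site.

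Deposited estimated counts, in which each library had been multiplied by 1 factor, summed to between 55720129 and 64198455 per library. Divided by that factor, they gave the fewest fragments in WT replicate 2 (51152517) and the most in KO replicate 3 (70625767). Fbxw7 transcripts were present in every library, at 29.5, 28.4 and 30.1 CPM in WT against 27.6, 27.4 and 24.1 CPM in KO (CPM here are counts per library total after TMM scaling), and did not pass the test (log2 fold change -0.16 ± 0.10 SE, edgeR adjusted p = 0.332). As the deleted exons were not stated, a sum over the gene does not check the genotype. Replicates 1 and 2 lay close to each other in both genotypes, at 7.42 (WT) and 6.56 (KO) times the sampling noise, whereas replicate 3 lay 26.8 and 29.7 times (WT) and 31.8 and 42.6 times (KO) from them. Values without replicate 3 of both genotypes therefore stand beside the results below. The labels do not tell whether libraries came from separate embryos or cultures, so p-values measure only how far these 6 samples scatter, part of which may be technical. The locus of Xist, which is transcribed from the inactive X, went from 1.47 to 911 CPM and the Y-linked Ddx3y from 95.9 to 30.4 CPM, so genotype cannot be told apart from a difference in the sex of the cells.

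Fibroblast markers summed to between 29770 and 39040 CPM over WT libraries and between 29600 and 36020 CPM over KO libraries. Of 10 tested, Dcn and Lum rose and Vim and Prrx1 fell. The 17 leukocyte markers with a locus of their own summed to only 23.5 to 25.8 CPM in WT and 19.0 to 20.2 CPM in KO. Most of this was Lyz2, which fell (log2 fold change -0.62, adjusted p = 0.0171), as did Cd68 (-1.40, adjusted p = 0.0299). Cd14 went the other way, from 4.42, 4.75 and 4.59 CPM in WT to 6.38, 5.86 and 7.58 CPM in KO. Its KO libraries all lay above WT, but Cd14 did not pass in edgeR (0.53, adjusted p = 0.056). Adgre1, C1qa, C1qb, C1qc, Tyrobp and S100a9 were at 0 in every library. Ptprc, the pan-leukocyte surface gene, held at most 2 fragments in a library. The 13 endothelial markers summed to 13.8 to 14.1 CPM in WT and 45.8 to 49.2 CPM in KO, where Eng (4.64 against 45.2 CPM) rose and Kdr and Tek fell, with Tie1, Cldn5 and Sox17 at 0. Epithelial markers summed to between 0.708 and 3.83 CPM over all libraries, with Krt8 and Krt14 at 0. Their part in the results below was not tested. In bulk RNA, fewer cells of a type and less RNA per cell cannot be told apart.

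Of the 59 members, 28 had enough fragments for the test, and 14 of these passed it at an adjusted p of 0.05, against 16.1% of all 16787 genes tested. Ligands made up 13 of the 14, with 8 higher and 5 lower in KO, where 8.03% of all genes were higher and 8.08% lower. Of 10 tested CXC ligands, 5 rose (Cxcl1, Cxcl2, Cxcl3, Cxcl5 and Cxcl10) and 1 fell (Cxcl14). Of 11 tested CC ligands, 3 rose (Ccl8, Ccl11 and Ccl27a) and 3 fell (Ccl5, Ccl20 and Ccl28). The only CX3C ligand, Cx3cl1, fell, and of 6 tested receptors Ackr3 fell. The WT and KO libraries did not overlap for 14 of the 28 tested members, against 37.7% of all genes. Some members (Cxcl2, Cxcl3 and Ccl28) passed the filter on low counts through 1 genotype, so shares and medians among tested members are descriptions.

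The median log2 fold change was 1.93 over the 10 tested CXC ligands and 0.11 over the 11 tested CC ligands, beside 0.0075 over all genes. The CXC median includes Cxcl2 and Cxcl3, which were tested through their KO counts and so pull it upward. The CC median includes Ccl28, which was tested through its WT counts. Without replicate 3 of both genotypes, 13 ligands were higher, 7 were lower and 3 receptors passed, but so did 41.3% of all genes (20.7% higher and 20.6% lower). With the similar replicates 1 and 2 of a genotype added into a single sample, 2.71% of all genes passed (1.58% higher and 1.13% lower). Then 4 ligands were higher (Cxcl1, Cxcl3, Cxcl5 and Ccl8), 1 was lower (Cxcl14) and none of the tested receptors passed. Scaling by library size alone left the member counts as they were but split all calls into 1968 higher and 1026 lower, where TMM gave 1348 and 1357. limma on log2(FPKM + 1) split them into 588 higher and 974 lower.

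**Figure D1:**
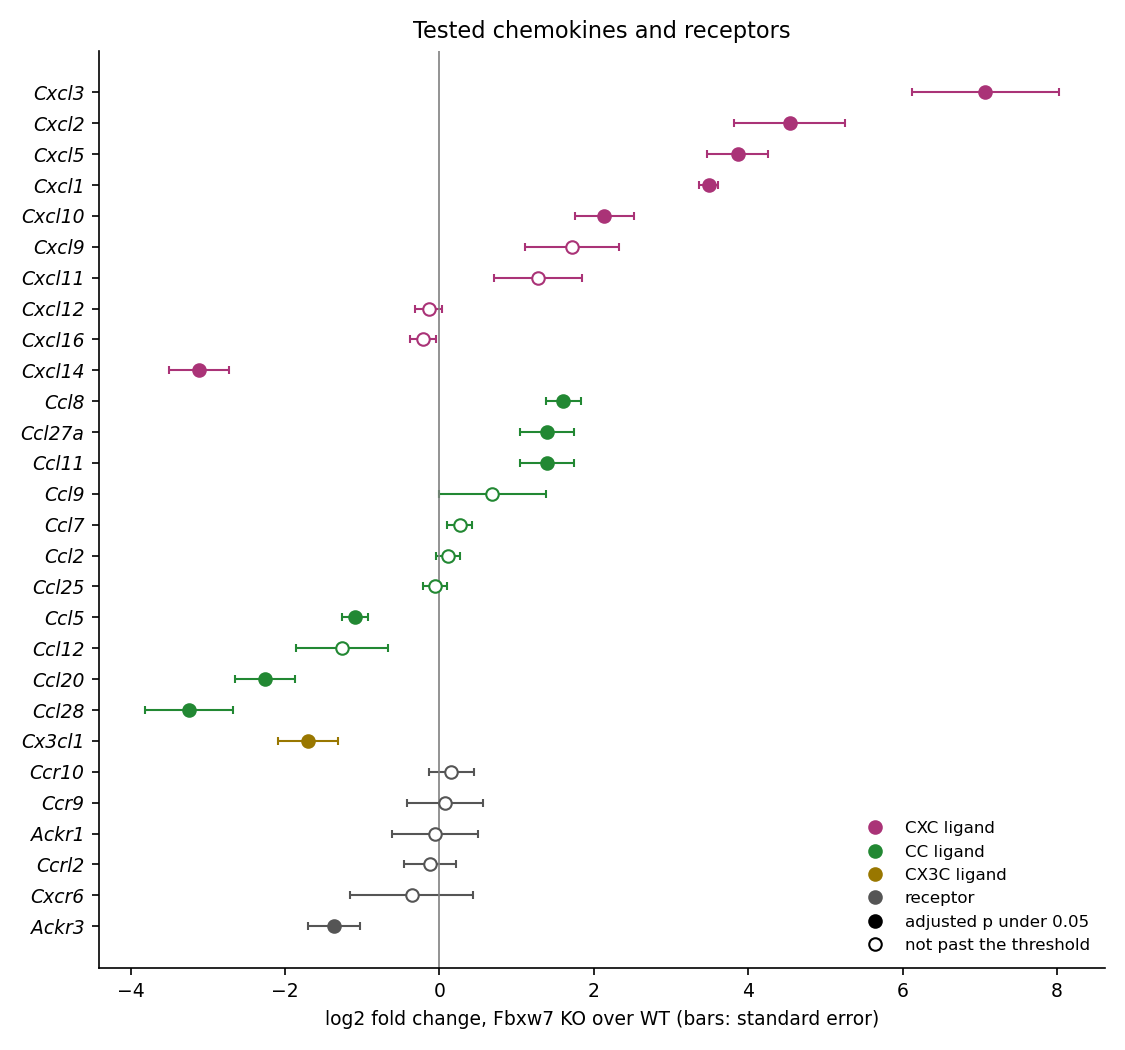
Log2 fold change, KO over WT, of the 28 tested members with standard errors (horizontal axis), grouped by class, with filled points for an adjusted p under 0.05. The neutrophil-attracting CXC genes lie farthest to the right, from 3.49 for Cxcl1 to 7.07 for Cxcl3, while Cxcl14 (-3.12) and Ccl28 (-3.25) lie farthest to the left. Cxcl2 and Cxcl3 were tested through their KO counts, and the value of Cxcl3 rests on 1 WT fragment.

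Neutrophil-attracting CXC ligands held the largest increases of the family. Cxcl1 stood at 10.8, 10.5 and 10.8 CPM in WT replicates 1 to 3 and at 106, 115 and 138 CPM in KO. The KO libraries were all far above the narrow WT range, and the 11.2-fold difference (log2 3.49 ± 0.13 SE, adjusted p = 9.34e-06) passed in all 18 alternatives run for it. Cxcl5 read 18.2, 16.9 and 6.09 CPM in WT against 212, 224 and 165 CPM in KO. WT replicate 3 was low among the WT libraries, and the log2 fold change of 3.87 ± 0.39 (adjusted p = 0.00105) was 3.63 without replicate 3 of both genotypes.

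Cxcl2 was scarce in WT, at 0.0637, 0.25 and 0.127 CPM, and reached 4.06, 5.46 and 0.983 CPM in KO. KO replicate 3 was the lowest KO library but still above all WT libraries, and the log2 fold change was 4.53 ± 0.72 (adjusted p = 0.00623). The call of Cxcl2 was lost with replicates 1 and 2 summed and in limma on log2(FPKM + 1), with or without a filter (adjusted p up to 0.114). Cxcl3 showed the reverse order among KO libraries, with 0, 0 and 0.0181 CPM in WT against 0.633, 0.556 and 1.88 CPM in KO. Only 1 WT fragment stood against 209 KO fragments, a ratio of 194 with an exact 95% counting interval of 34.4 to 7700, which covers counting error only, and the adjusted p was 0.00323. Cxcl15, a related ligand known from lung, was at 0 in WT and held 18 fragments over the KO libraries, at least 5.57-fold more than the limit of 3 fragments over the group, and was too low for the test.

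These genes lie side by side. From Cxcl5 (chromosome 5, 90759360 to 90761624, plus strand, mm10) through Cxcl3 (90786103 to 90789600), Cxcl15 (90794534 to 90803067) and Cxcl1 (90891241 to 90893115) to Cxcl2 (90903871 to 90905938) the cluster spans 146.6 kb. Ppbp and Pf4, platelet chemokine genes named outside the symbol rule, lie in the same stretch. Ppbp, another CXCR2 ligand, read 0.0637, 0.0625 and 0 CPM in WT against 1.63, 1.68 and 2.71 CPM in KO (log2 fold change 5.44 ± 0.59, adjusted p = 0.00137), and Pf4 held 2 fragments in KO replicate 3 and none elsewhere. Cxcl1 and Cxcl5 held enough fragments for the test in both genotypes, whereas Cxcl2, Cxcl3 and Ppbp passed the filter on low counts through KO libraries, so being tested there already required higher counts in KO.

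**Figure D2:**
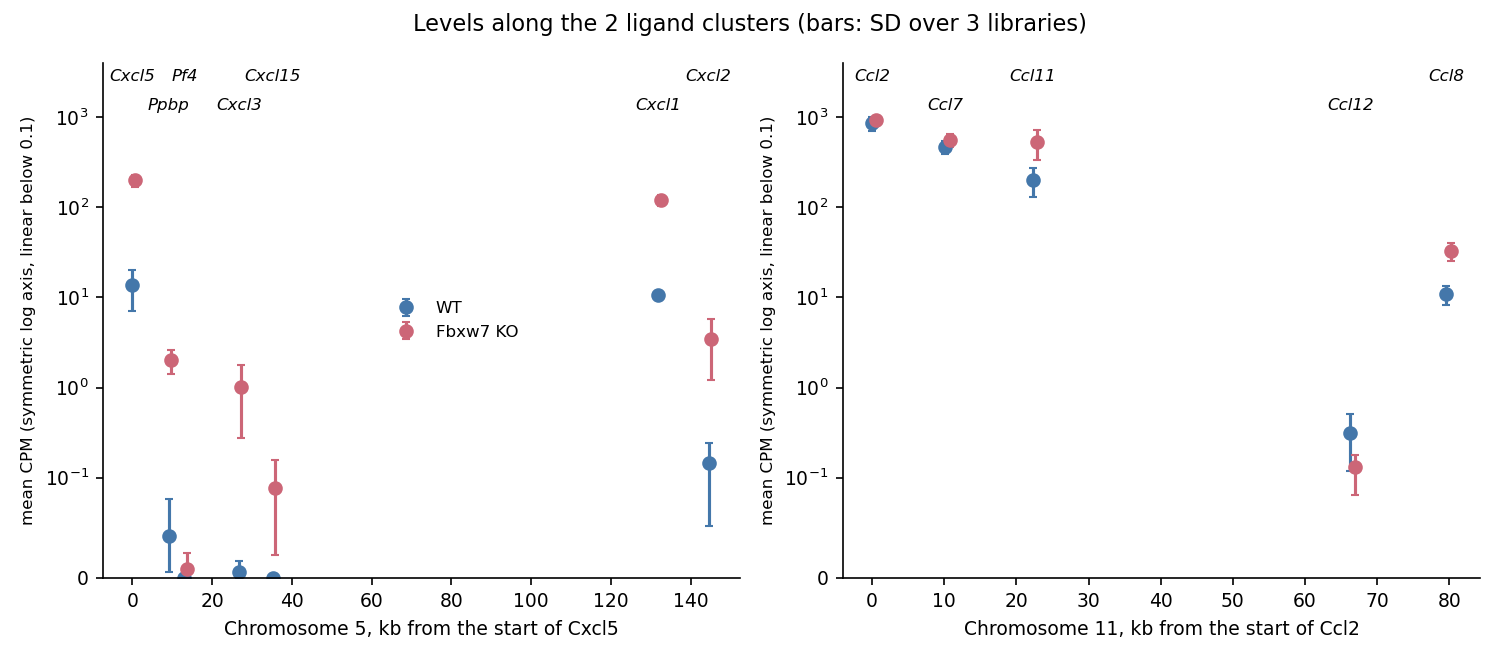
Mean CPM with SD over 3 libraries (vertical axis) against distance in kb along the Cxcl5 to Cxcl2 cluster on chromosome 5 (left) and the Ccl2 to Ccl8 cluster on chromosome 11 (right), WT in blue and KO in red. On the left every gene with more than a few fragments is higher in KO, while on the right the SD bars of Ccl2 and of Ccl7 overlap between genotypes and Ccl11 and Ccl8 are higher in KO.

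CXCR3 ligands were high in KO replicates 1 and 2 and lower, or within the WT range, in KO replicate 3, and of them Cxcl10 passed in edgeR. Cxcl10, an interferon-induced T cell attractant, read 33.8, 29.9 and 37.3 CPM in WT against 183, 198 and 63.7 CPM in KO. All KO libraries lay above WT and the log2 fold change of 2.14 ± 0.38 passed (adjusted p = 0.00981), with 0.0514 without WT replicate 2 and 6.07e-05 without KO replicate 3. The call was also lost without a count filter (adjusted p = 0.0865), in limma on log2(FPKM + 1) (0.0647, and 0.0786 without a filter) and with replicates 1 and 2 summed (0.153). Cxcl9 held 0.907, 0.916 and 0.542 CPM in WT against 3.27, 3.89 and 0.606 CPM in KO, where KO replicate 3 lay inside the WT range (log2 fold change 1.72 ± 0.61, adjusted p = 0.0961, and 0.0126 in the DESeq2 Wald test).

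Cxcl11 had the same shape, with 0.541, 0.292 and 0.56 CPM in WT against 1.42, 1.63 and 0.323 CPM in KO (log2 fold change 1.28 ± 0.57, adjusted p = 0.169). Leaving out KO replicate 3 brought both past the threshold, Cxcl9 at 2.18 (adjusted p = 0.00251) and Cxcl11 at 1.71 (adjusted p = 0.0124). The 3 genes share 44.14 kb of chromosome 5, from Cxcl9 (92321347 to 92328079, minus strand) through Cxcl10 (92346638 to 92348889) to Cxcl11 (92359544 to 92365485). Cxcl10 overlaps Art3 by 133 bp and Cxcl11 overlaps the processed pseudogene Gm2673 by 1582 bp, both on the opposite strand, and use of strand in the counting is not known here, so their reads may be mixed. The gene annotation (GENCODE M21) labels Cxcl11 itself a polymorphic pseudogene, and whether these cells make its protein was not tested.

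Among the remaining CXC ligands Cxcl14, a ligand made by many epithelia and fibroblasts, fell most. It read 115, 117 and 71.2 CPM in WT against 11.9, 17.1 and 5.88 CPM in KO, and replicate 3 was the lowest library of each genotype. The lowest WT library was still above the highest KO library, and the log2 fold change of -3.12 ± 0.38 (adjusted p = 0.00226) was -3.00 without replicate 3 of both genotypes. The gene lies on chromosome 13 from 56288643 to 56296551 on the minus strand.

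Cxcl12, the homeostatic CXCR4 ligand and the most abundant CXC transcript, did not pass. Its libraries read 751, 777 and 497 CPM in WT against 610, 666 and 559 CPM in KO and overlapped, with a log2 fold change of -0.14 ± 0.18 (adjusted p = 0.635). Without replicate 3 of both genotypes it was -0.26 with an adjusted p of 0.0159, in a run where 41.3% of all genes passed. Cxcl16, a membrane-anchored ligand of CXCR6, read 21.7, 19.1 and 18.3 CPM in WT against 18.1, 19.9 and 13.1 CPM in KO (-0.21 ± 0.17, adjusted p = 0.438) and overlaps Zmynd15 by 552 bp on the opposite strand. Cxcl13, the B cell attractant, was at 0 in every library and Cxcl17 had fewer than 3 fragments in each.

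**Figure D3:**
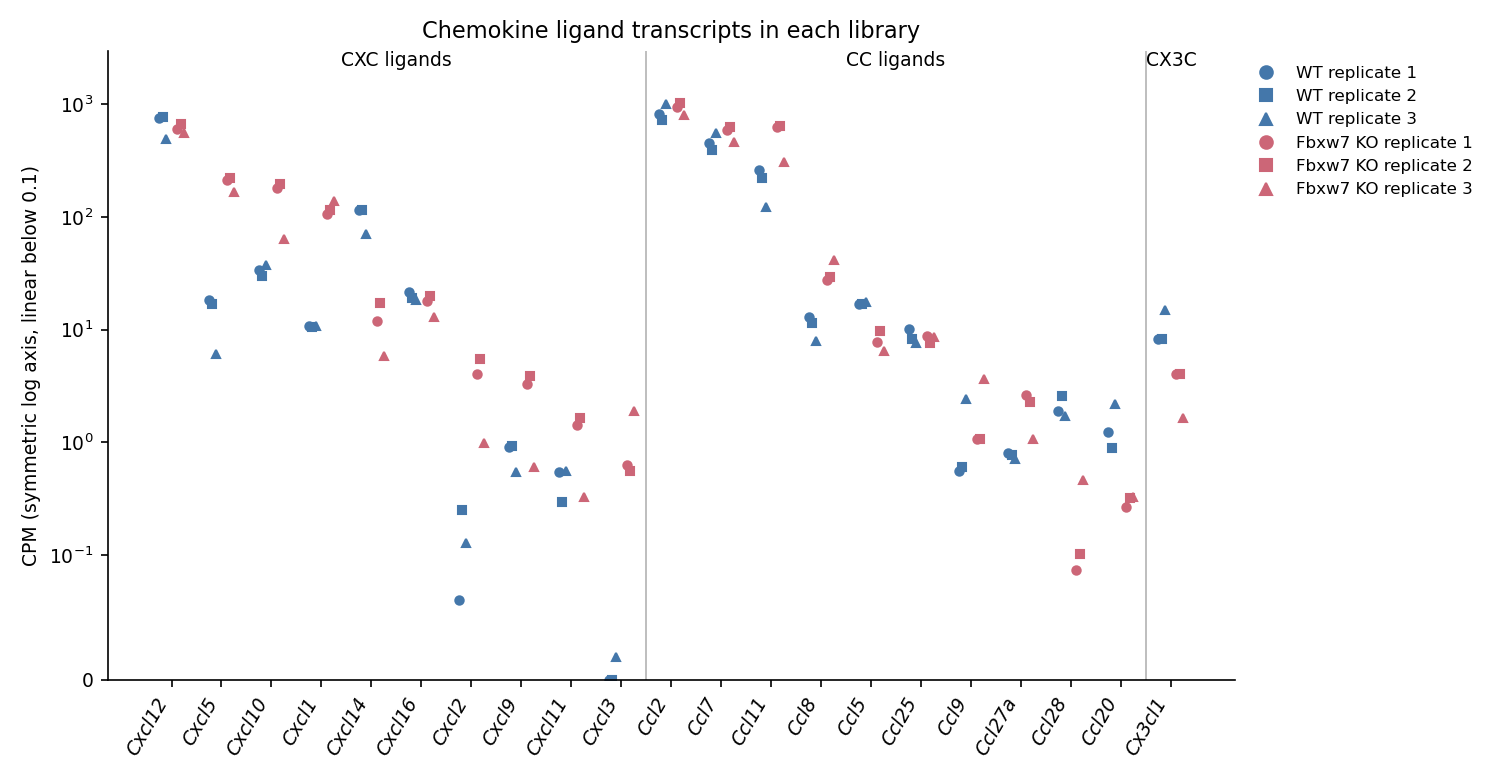
CPM of the 21 ligands with a mean of at least 1 CPM in a genotype, on a symmetric log axis, 1 point for each library and a marker shape for each replicate number. Cxcl5, Cxcl10, Cxcl1, Cxcl2 and Cxcl3 show KO points above all WT points, and the KO replicate 3 triangles of Cxcl10, Cxcl9 and Cxcl11 lie below the other KO points.

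Ccl2 and Ccl7, the most abundant chemokine transcripts by FPKM (which are divided by transcript length), did not pass. By mean CPM Cxcl12 stood above Ccl7 in both genotypes. Ccl2, the main monocyte attractant, read 824, 727 and 1018 CPM in WT against 946, 1026 and 798 CPM in KO (log2 fold change 0.11 ± 0.16, adjusted p = 0.68). Ccl7, its neighbour and also a CCR2 ligand, read 454, 397 and 558 CPM in WT against 597, 630 and 459 CPM in KO (0.26 ± 0.17, adjusted p = 0.336). For both genes replicate 3 was the highest WT library and the lowest KO library. Without replicate 3 of both genotypes the log2 fold changes were 0.35 (adjusted p = 0.00393) for Ccl2 and 0.53 (adjusted p = 9.67e-05) for Ccl7. That run rests on the closely similar replicates 1 and 2, and 41.3% of all genes passed in it. With replicates 1 and 2 summed, edgeR gave -0.01 (adjusted p = 0.991) for Ccl2 and 0.12 (adjusted p = 0.837) for Ccl7.

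Ccl11 and Ccl8 rose from the same cluster on chromosome 11, which spans 81.23 kb from Ccl2 (82035571 to 82037453, plus strand) to Ccl8 (82115185 to 82116799). Ccl11 (82057823 to 82062955), eotaxin, read 260, 224 and 123 CPM in WT against 635, 648 and 309 CPM in KO. Replicate 3 was low in both genotypes, and the lowest KO library was not far above the highest WT library. The log2 fold change of 1.39 ± 0.35 (adjusted p = 0.0334) lost the call when any library but KO replicate 3 was left out, with adjusted p between 0.0538 and 0.112. It was also lost without a count filter, with replicates 1 and 2 summed and in every limma run (adjusted p up to 0.225). Ccl8, which in mice acts through CCR8, read 12.9, 11.5 and 7.99 CPM in WT against 27.8, 29.1 and 41.6 CPM in KO. Its groups were well apart, and the log2 fold change of 1.60 ± 0.22 (adjusted p = 0.00371) passed in all 18 alternatives run for it. Ccl12, between them, read 0.461, 0.396 and 0.0904 CPM in WT against 0.176, 0.135 and 0.0808 CPM in KO (adjusted p = 0.194).

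Ccl27a, a skin T cell attractant, was low and rose, from 0.796, 0.77 and 0.705 CPM in WT to 2.64, 2.26 and 1.06 CPM in KO. KO replicate 3 was only slightly above WT, and the log2 fold change of 1.40 ± 0.35 (adjusted p = 0.0328) lost the call when any library but KO replicate 3 was left out, with adjusted p between 0.0637 and 0.121. It was also lost with replicates 1 and 2 summed and in every limma run (adjusted p up to 0.236). The gene (chromosome 4, 41769467 to 41774247, minus strand) overlaps Il11ra1 by 8 bp on the opposite strand, and Ccl27b, its near-identical copy, was at 0, so the split of reads between the copies is uncertain.

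The CC ligands that fell were spread over chromosomes. Ccl5, a T cell and monocyte attractant also called RANTES (chromosome 11, 83525778 to 83530518, minus strand), read 17.0, 16.8 and 17.7 CPM in WT against 7.80, 9.80 and 6.41 CPM in KO. WT was narrow and every KO library lay below it (log2 fold change -1.10 ± 0.17, adjusted p = 0.00506). Ccl20, the CCR6 ligand (chromosome 1, 83116766 to 83119167), read 1.23, 0.896 and 2.2 CPM in WT against 0.264, 0.32 and 0.323 CPM in KO (-2.26 ± 0.39, adjusted p = 0.00852). WT replicate 3 was the highest and the KO libraries were close together.

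Ccl28, an epithelial ligand of CCR10 (chromosome 13, 119623819 to 119654359), read 1.89, 2.58 and 1.70 CPM in WT against 0.088, 0.101 and 0.458 CPM in KO. KO replicate 3 was the highest KO library, and the log2 fold change of -3.25 ± 0.57 (adjusted p = 0.00952) was -4.56 without replicate 3 of both genotypes.

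Other CC ligands did not pass. Ccl25, a thymus and gut chemokine that overlaps Elavl1 by 204 bp on the opposite strand, read 10.2, 8.19 and 7.58 CPM in WT against 8.72, 7.63 and 8.59 CPM in KO (adjusted p = 0.834). Ccl9 read 0.557, 0.604 and 2.44 CPM in WT against 1.07, 1.08 and 3.62 CPM in KO (adjusted p = 0.552), and replicate 3 was by far the highest library of each genotype. At 0 in every library were Ccl19, Ccl21a, Ccl21b, Ccl22, Ccl24, Ccl26 and Ccl27b, and Ccl1, Ccl3, Ccl4 and Ccl17 had fewer than 3 fragments in each. These include the CCR7 ligands of lymph nodes (Ccl19 and Ccl21a) and the macrophage ligands Ccl3 and Ccl4. Ccl6 held more than that in WT replicate 3 alone, at 0.0723 CPM.

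Cx3cl1, the only CX3C ligand, is made as a membrane-bound adhesion molecule that can be shed. It read 8.31, 8.21 and 15.0 CPM in WT against 4.03, 4.04 and 1.64 CPM in KO, with replicate 3 the highest in WT and the lowest in KO. The groups did not overlap and the log2 fold change was -1.70 ± 0.39 (adjusted p = 0.0238), but it was -1.03 without replicate 3 of both genotypes. Leaving out replicate 1 or 2 of either genotype ended the call, with adjusted p between 0.052 and 0.0629. The call was also lost in edgeR without a count filter (adjusted p = 0.0713), with the replicate number as a block (0.0719) and with replicates 1 and 2 summed (0.128). The gene lies on chromosome 8 from 94772009 to 94782427 on the plus strand.

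Levels of different genes were compared as FPKM, which are divided by transcript length. In WT the order among CXC ligands ran from Cxcl12 (318 ± 71.3 FPKM, SD, n = 3) to Cxcl14 (58.8 ± 14.2), Cxcl10 (36.4 ± 4.13), Cxcl1 (13.0 ± 0.42), Cxcl16 (11.3 ± 1.27) and Cxcl5 (9.39 ± 4.46). The last pair did not differ beyond their spread. In KO it ran Cxcl12 (273 ± 31.8), Cxcl10 (155 ± 79.5), Cxcl1 (142 ± 15.4) and Cxcl5 (133 ± 22.2), and the last 3 did not differ beyond their spread. Cxcl14, next to Cxcl12 in WT, was below Cxcl16 in KO at 6.57 ± 3.27 FPKM. Among CC ligands, Ccl2, Ccl7 and Ccl11 came first in both genotypes, at 1400 ± 258, 792 ± 145 and 224 ± 75.5 FPKM in WT and 1439 ± 223, 904 ± 170 and 567 ± 214 FPKM in KO, while Ccl5 and Ccl8 changed places.

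Summed per class, CC ligands outweighed CXC ligands in every library. The CXC sum was 491, 503 and 348 FPKM in WT and 751, 839 and 587 FPKM in KO, 1.62 times as high on average. The CC sum was 2455, 2238 and 2890 FPKM in WT and 3270, 3522 and 2393 FPKM in KO, 1.21 times as high, and here KO replicate 3 lay inside the WT range. The CXC share of CXC and CC ligands together was 16.7%, 18.4% and 10.7% in WT and 18.7%, 19.2% and 19.7% of FPKM in KO. By CPM, which do not divide by length, the share was 35.2% on average in both genotypes, and the log2 ratio of CXC to CC sums was 0.015 higher in KO (pooled SD 0.346), against 0.44 by FPKM. The FPKM difference was 0.16 without WT replicate 3 and 0.14 without replicate 3 of both genotypes. By CPM the log2 ratio was -0.734, -0.517 and -1.44 in WT and -0.954, -0.911 and -0.778 in KO. Without replicate 3 of both genotypes it was 0.31 lower in KO, and the remaining libraries did not overlap.

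The makeup within the CXC class differed more than its sum. Cxcl1, Cxcl2, Cxcl3, Cxcl5 and Cxcl15 together gave 5.13%, 4.88% and 5.22% of CXC FPKM in WT and 36.2%, 35.5% and 45.7% in KO. Their summed level was 25.2, 24.6 and 18.2 FPKM in WT and 272, 298 and 269 FPKM in KO, 12.3 times as high. Cxcl12 gave 70.7% ± 2.62 of the CXC sum in WT and 38.0% ± 3.03 in KO (SD, n = 3 each). The CXCR3 ligands summed to 36.4, 33.2 and 41.4 FPKM in WT and 193, 213 and 64.6 FPKM in KO, with KO replicate 3 nearer WT than the other KO libraries. Ccl2 and Ccl7 gave 86.4% ± 4.48 of the CC sum in WT and 76.9% ± 2.57 in KO. Without them the CC sum was 397, 364 and 245 FPKM in WT and 819, 851 and 484 FPKM in KO.

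**Figure D4:**
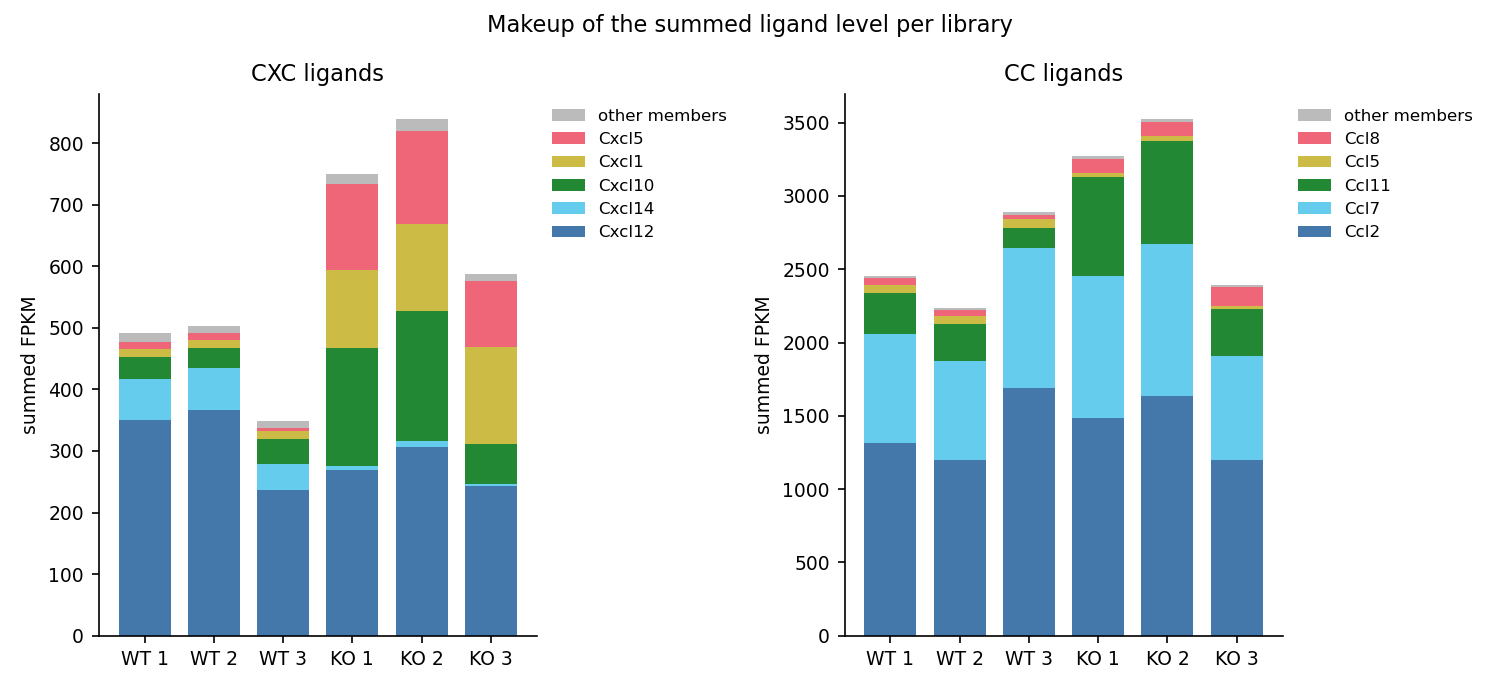
Summed FPKM of CXC ligands (left) and CC ligands (right) in each library, stacked by gene and drawn from 0. In the KO bars Cxcl5, Cxcl1 and Cxcl10 add to a similar amount of Cxcl12 while Cxcl14 shrinks, and on the right Ccl11 and Ccl8 add to Ccl2 and Ccl7.

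Receptor transcripts were scarce. Summed over receptors in a locus of their own, WT held 13.9, 14.3 and 13.0 CPM and KO 6.12, 6.39 and 8.89 CPM. In WT most of this was Ackr3. Cxcr2, Cxcr3, Ccr2, Ccr6 and Ccr8 were at 0 in every library, which allows up to 0.0404 to 0.0625 CPM by library (3 fragments), and Cxcr1 and Ccr7 had fewer than 3 fragments in each. The undetected receptors thus include CXCR2, to which Cxcl1, Cxcl2, Cxcl3 and Cxcl5 bind, CXCR3, to which Cxcl9, Cxcl10 and Cxcl11 bind, CCR2 of Ccl2 and Ccl7, and CCR6 of Ccl20. Cxcr4, the Cxcl12 receptor, reached 0.108 CPM in WT replicate 3 and at most 0.0318 CPM elsewhere, and Ccr3, the Ccl11 receptor, at most 0.0833 CPM.

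Ackr3, an atypical receptor that takes up Cxcl12 and Cxcl11, fell. It read 11.3, 11.6 and 8.33 CPM in WT against 3.04, 2.69 and 6.48 CPM in KO, with replicate 3 of the genotypes nearer to each other than the rest. The log2 fold change was -1.36 ± 0.34 (adjusted p = 0.0321) and -2.0 without replicate 3 of both genotypes. Leaving out replicate 1 or 2 of either genotype ended the call, with adjusted p between 0.0926 and 0.116. The call was also lost with the replicate number as a block, with replicates 1 and 2 summed and in limma on log2(FPKM + 1) without a filter (adjusted p up to 0.253). The gene lies on chromosome 1 from 90203980 to 90216751 on the plus strand.

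Further receptors above 1 CPM did not pass. The locus of Ackr1, the Duffy receptor, is shared with Cadm3, so its reads cannot be assigned to Ackr1, and it read 19.2, 19.0 and 14.0 CPM in WT against 21.8, 24.5 and 3.86 CPM in KO. KO replicate 3 was far below the others, and the log2 fold change of -0.06 (adjusted p = 0.956) was 0.28 without replicate 3 of both genotypes (adjusted p = 0.0412). In that run 41.3% of all genes passed. Cxcr6, the Cxcl16 receptor, read 0.334, 0.333 and 2.73 CPM in WT against 1.02, 1.11 and 0.525 CPM in KO. WT replicate 3 alone turned its direction: the log2 fold change was -0.36 (adjusted p = 0.798) with all libraries and 1.40 without WT replicate 3.

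Ccrl2, an atypical receptor that presents chemerin, read 1.40, 1.38 and 0.922 CPM in WT against 1.02, 1.63 and 0.727 CPM in KO (adjusted p = 0.838). Ccr10, the receptor of Ccl27a and Ccl28, stayed between 0.398 and 0.666 CPM in all libraries (adjusted p = 0.759), and the Ccr9 locus, shared with Gm17200, between 0.107 and 0.363 CPM (adjusted p = 0.939). Ackr2, Ackr4, Ccr1, Ccr4, Cx3cr1 and Cxcr5 also had at least 3 fragments in some library, and of these Ackr4 was the highest at up to 0.283 CPM. Ccr1 held 0.0636, 0.0625 and 0.0542 CPM in WT and at most 0.0176 CPM in KO, and Ccr4 was at 0 in WT and at most 0.0404 CPM in KO, both too low for the test.

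**Figure D5:**
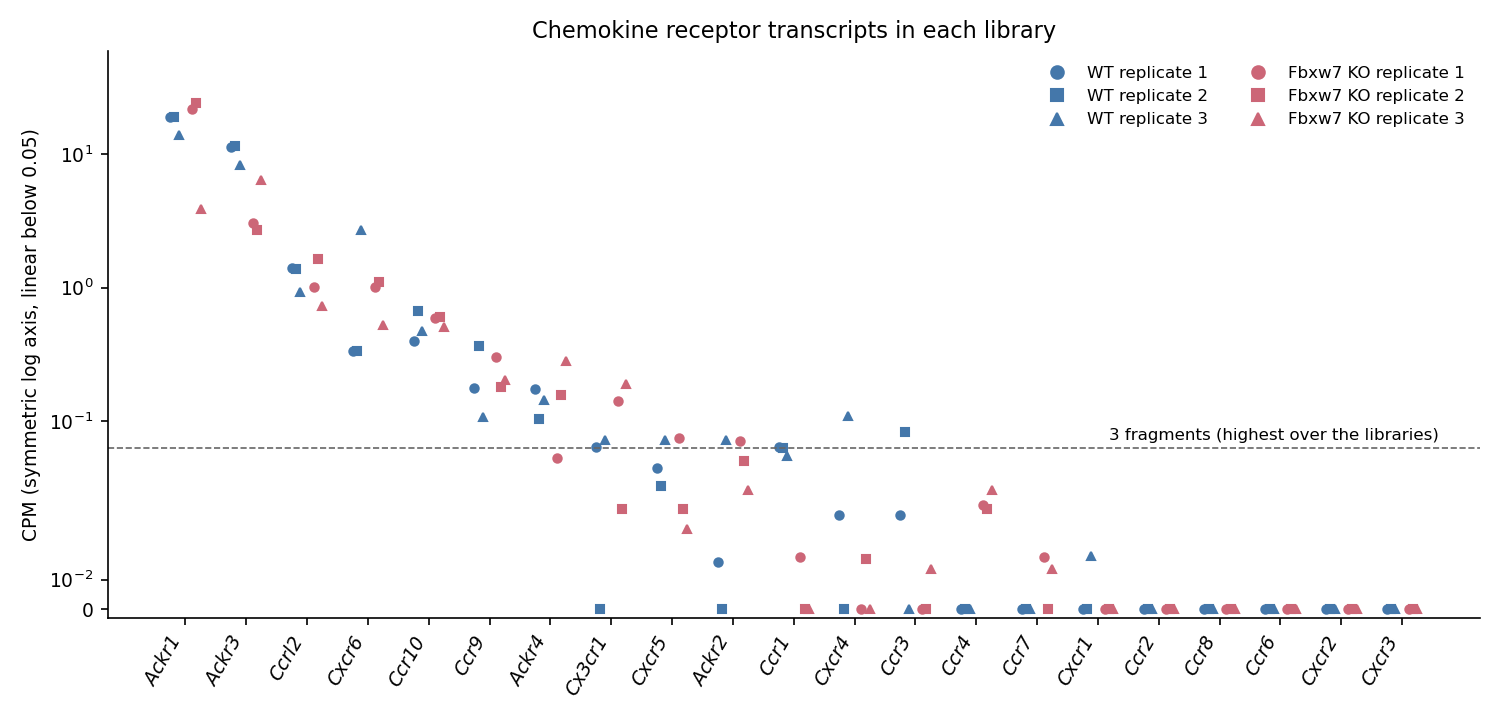
CPM of 21 receptors on a symmetric log axis, 1 point for each library, with a dashed line at the highest level that 3 fragments give in any library (0.0625 CPM). Ackr1 and Ackr3 alone exceed 5 CPM in any library, and the 5 receptors at the right end lie at 0 throughout.

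Genes around the pathway were read from lists of known function. Beside their counts, 8.03% of all genes were higher and 8.08% lower in edgeR, 17.7% passed in DESeq2 (8.57% higher and 9.17% lower), and 31.6% had an unadjusted p under 0.05 (16.1% higher and 15.5% lower). Of 34 tested genes that carry signals to NF-kB or are induced with it, 7 rose and 3 fell in edgeR (median log2 fold change 0.21), 9 and 3 in DESeq2, and 13 were higher and 4 lower at an unadjusted p under 0.05. Those that fell, named after their values were seen, were the interleukin 1 receptor antagonist gene Il1rn (-1.93, adjusted p = 0.0262), the RNA-sensing receptor gene Tlr3 (-0.81, adjusted p = 0.0134) and the NF-kB subunit gene Rel (-0.60, adjusted p = 0.041). Il6, a cytokine gene, read 0.446, 0.375 and 0.307 CPM in WT against 10.1, 12.9 and 4.52 CPM in KO. The NF-kB cofactor gene Bcl3 (log2 fold change 1.40 ± 0.19), Lcn2 (1.80 ± 0.24), which encodes an iron-siderophore binding protein, and the interleukin 1 receptor gene Il1r1 (1.04 ± 0.16) also rose, with adjusted p between 0.00077 for Il6 and 0.00517 for Il1r1. Il1b was at 0 in every library. Csf3, also among the genes that rose and named after its values were seen, held only 3, 3 and 8 fragments in WT. It passed the filter on low counts through KO libraries, so its call is a description.

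Of 15 tested interferon signalling genes 0 rose and 4 fell in edgeR and in DESeq2 (median -0.19), and 2 were higher and 5 lower at an unadjusted p under 0.05. The receptor chains Ifngr1 (-0.49 ± 0.08) and Ifngr2 (-0.43 ± 0.08), the RNA sensor Ifih1 (-0.53 ± 0.11) and the transcription factor gene Irf7 (-1.31 ± 0.34) were those that fell. Irf7 read 347, 360 and 195 CPM in WT against 137, 160 and 68.2 CPM in KO, with replicate 3 the lowest of each genotype.

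Of 17 tested genes that act below chemokine receptors, 0 rose and 6 fell in edgeR (median -0.17), 0 and 7 in DESeq2, and 0 and 7 at an unadjusted p under 0.05. They included Gnai1 (-1.45 ± 0.22), a G protein subunit gene, the Rac exchange factor gene Prex1 (-1.25 ± 0.21), Elmo1 (-2.26 ± 0.38), which works with DOCK2 in cell movement, and the kinase gene Ptk2b (-1.01 ± 0.17). Rgs4 (-1.56 ± 0.28) and the arrestin gene Arrb1 (-0.50 ± 0.14), named after their values were seen, were the others that fell. Of 19 tested genes whose proteins cut or bind chemokines, 3 rose and 4 fell in edgeR (median 0.09), 4 and 5 in DESeq2, and 6 were higher and 5 lower at an unadjusted p under 0.05: the metalloproteinase genes Mmp3 (3.04 ± 0.14), Mmp13 (4.69 ± 0.37) and Mmp12 (3.17 ± 0.31) rose, and Mmp9, whose product trims CXC chemokines, fell from 131, 154 and 282 CPM to 22.8, 25.0 and 16.7 CPM (-3.13 ± 0.31). Dpp4, Gpc4 and Gpc6, named after their values were seen, were the others that fell. Mmp12 passed the filter on low counts through KO libraries and Dpp4 through WT libraries, so their calls are descriptions.

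Of 8 tested genes for factors that shorten or lengthen the life of AU-rich messengers, 0 passed in edgeR, 0 had an unadjusted p under 0.05 and 0 passed in DESeq2. The most abundant were Zfp36l1 (log2 fold change -0.07 ± 0.12, adjusted p = 0.759) and Zfp36l2 (-0.18 ± 0.11, adjusted p = 0.316). Of 7 tested chemokine genes or receptors under other names, Ppbp and Gpr35, a receptor reported to bind CXCL17, rose. Gpr35 read 0.127, 0.146 and 0.235 CPM in WT against 1.48, 1.31 and 1.62 CPM in KO (3.09 ± 0.30, adjusted p = 0.000835), and Xcl1 was at 0. The WT libraries held only 8, 7 and 13 fragments of Gpr35. Like Ppbp, it passed the filter on low counts through KO libraries, so being tested already required higher counts there. Medians of these lists lie beside 0.0075 over all genes, and no test was made of a list.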

How the data were processed

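RNA of 3 WT and 3 Fbxw7 KO fibroblast libraries was measured by RNA-seq. Per the labels' protocols, libraries followed the Illumina TruSeq procedure. Per the submitters' processing notes, TopHat2 2.1.1, SAMtools 1.5, deepTools and Cufflinks 2.2.1 were used on mm10, while annotation and strand use are not given in the sources used here. Estimated counts were deposited by the authors (expected fragments per locus), in which each library had been multiplied by 1 factor: 88.9% to 89.5% of values up to 1000 were whole multiples of it (tolerance 0.05). The authors also deposited FPKM, scaled to length and library total. The 30 columns of variances and confidence limits were not used. Loci without a name (1317, at most 3.13e-05% of a library) and 9 named loci marked HIDATA were left out, and 55 marked FAIL were kept.

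The estimated counts were rounded to whole numbers and entered the two-sided robust quasi-likelihood F test of edgeR 4.0.16 (R 4.3.3) with genotype as the only term, TMM factors and the filterByExpr filter, with Benjamini-Hochberg adjustment over 16787 genes and a threshold of 0.05. Errors are SD over libraries or SE of log2 fold changes. As fragments carry no molecular identifiers, intervals and limits cover counting error only. The test was tried on simulated data first. It recovered 8 of 67 changes of 1.5-fold, 42 of 67 of 2-fold and 59 of 66 of 4-fold, with 17 false calls. A gene that did not pass may therefore still differ, above all by a small fold.

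Members with a mean of at least 1 CPM in a genotype are given in every library. Values of 1 receptor are not reported here. Up to 4 genes past the threshold with the smallest adjusted p are named from each list, or the 2 most abundant where none passed. Members and lists were chosen with earlier results of these data known. Positions came from GENCODE M21 (same build), matched for all 59 members, and promoters from RefSeq. Alternatives used DESeq2 1.42.0, limma 3.58.1 on log2(FPKM + 1) or log2(FPKM + 0.1), other scalings and filters, the replicate number as a block and fewer or summed libraries. Counts divided by each library's factor, and CXC to CC ratios over fewer libraries, were added after seeing the data. Python 3.11.15 with pandas 2.3.3 and matplotlib 3.10.9 made the summaries and plots.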

Additional observations from a re-analysis of the deposited data

How the results depend on the processing

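Of 434 log2 fold changes of the 25 single members under alternatives, 366 kept their direction and side of the threshold, 46 lost a call, 9 gained one and 13 turned direction; Cxcl1, Cxcl5, Cxcl14 and Ccl8 passed in every alternative run. Leaving out 1 library in turn gave between 1169 and 3282 calls over all genes, 5 to 10 ligands higher, 4 to 6 lower and 0 to 1 receptors. The KO minus WT difference in the log2 ratio of CXC to CC sums ran from -0.2555 to 0.205. Without replicate 3 of both genotypes the counts were 6993, 13, 7 and 3, and with replicates 1 and 2 summed 484, 4, 1 and 0. limma called 1562, 1615 and 1182 genes and 3, 5 and 3 ligands as higher on log2(FPKM + 1), log2(FPKM + 0.1) and log2(FPKM + 1) without a filter, and 0 receptors in the last. With the replicate number as a block 2356 genes, 8 ligands higher, 4 lower and 0 receptors passed. Cx3cl1 then had an adjusted p of 0.0719 and Ackr3 of 0.0586. After each genotype's mean was taken away, same-numbered libraries correlated at 0.024, 0.098 and 0.079. KO replicates 2 and 3 correlated best with the WT library of their own number, and KO replicate 1 with WT replicate 2 (0.076). With 3 libraries per genotype, such values cannot decide whether the numbers pair the samples. FPKM in place of CPM moved the KO minus WT difference in the log2 CXC to CC ratio from 0.0152 to 0.436. The values that turned direction were all of members that did not pass with all libraries. Ccl2 came to -0.010 with replicates 1 and 2 summed. By library size only Ccl25 came to 0.039 and the shared Ackr1 locus to 0.025. Cxcr6 came to 0.31 with the block, and without replicate 3 of both genotypes Ackr1 came to 0.28 and Cxcr6 to 1.66. With 1 library left out, Ccl25 ran from -0.15 (without WT replicate 3) to 0.072 (without WT replicate 1), Ccl9 from -0.16 (without KO replicate 3) to 1.73 (without WT replicate 3), Ackr1 from -0.44 (without KO replicate 2) to 0.41 (without KO replicate 3), Ccrl2 from -0.49 (without KO replicate 2) to 0.10 (without KO replicate 3) and Cxcr6 from -0.80 (without WT replicate 2) to 1.40 (without WT replicate 3). The cause was not tested. Members under 3 fragments in every library cannot be compared at this depth.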
